A study of Mus musculus with 4 samples.

Results

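TAM_H2Ab1 is one of 17 cell type names in a single-cell RNA sequencing experiment on the white blood cells of mouse melanoma, and 630 of 33368 cells carry it. Its members were taken from the deposited annotation alone, with no rule on expression added. YUMM1.7 mouse melanoma cells that express ovalbumin were injected subcutaneously into Rag2-/- mice, which make no T or B cells of their own. OT-1 CD8 T cells, which recognise an ovalbumin peptide, were transferred on day 7 (adoptive cell transfer), and the tumours were taken on day 10, 72 h after the transfer. Live CD45+ cells, that is, all white blood cells, were then sorted.

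The 4 groups had 1 sample each and differed in the injected cancer cells. NTT cells (clone 3A6) were naive to targeted therapy, whereas RTT cells (clone 2B12) were resistant to it. RTT_ROSA26 cells were RTT cells that carried a guide against the Rosa26 locus as a control edit, and RTT_PTGS12KO cells were RTT cells in which Ptgs1 and Ptgs2, which encode the cyclooxygenases that begin prostaglandin synthesis, had been knocked out. Each line derived from a single clone. The knockout was made in the cancer cells and the sort kept CD45+ cells, so the level of Ptgs2 given here is that of host macrophages and does not check the edit. The labels name 1 tumour per condition while the study's legends speak of tumours pooled within a group, which could not be settled. With 1 sample per group there is no replicate check and no test between groups. The 95% intervals below (exact binomial for shares, exact Poisson for summed counts) cover counting error only and hold no variation from tumour to tumour. Where 4 values follow each other without names, they stand in the order NTT, RTT, RTT_ROSA26 and RTT_PTGS12KO.

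Macrophages that carry MHC class II molecules take up material from their surroundings, cut it into peptides and show these to CD4 T cells. The class II genes are switched on together by the co-activator Ciita, which is itself induced by interferon-γ, and the same cytokine induces guanylate-binding proteins, immunity-related GTPases and the chemokines Cxcl9 and Cxcl10. Type I interferons, which most nucleated cells can make, induce a partly overlapping set of antiviral genes. Many macrophages also make the complement subunits C1qa, C1qb and C1qc, which mark differentiated tissue macrophages rather than the blood monocytes from which they often arise.

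The NTT tumour held 192 TAM_H2Ab1 cells of 8266 CD45+ cells, or 2.32% (2.01 to 2.67). RTT held 63 of 7970, or 0.790% (0.608 to 1.01), and RTT_ROSA26 held 11 of 6836, or 0.161% (0.0804 to 0.288). RTT_PTGS12KO held 364 of 10296, or 3.54% (3.19 to 3.91). The 4 intervals did not overlap, and the share was 2.94-fold larger in NTT than in RTT (log2 1.56, 1.14 to 1.99) and 21.97-fold larger in RTT_PTGS12KO than in RTT_ROSA26 (log2 4.46, 3.601 to 5.47). It was 4.47-fold larger in RTT_PTGS12KO than in RTT (log2 2.16, 1.77 to 2.57), and RTT_ROSA26 had 0.204 times the share of RTT (log2 -2.30, -3.37 to -1.36). The pool of cells was loaded 3 times on the chip, and the loads gave 2.06% to 2.70% in NTT, 0.613% to 0.975% in RTT and 3.33% to 3.75% in RTT_PTGS12KO. In RTT_ROSA26 the loads held 8, 1 and 2 cells, so that 1 load supplied most of them. Without load 1 the share of RTT_PTGS12KO was 52.1-fold that of RTT_ROSA26 (log2 5.70, 4.14 to 7.99), and RTT_ROSA26 had 0.0752 times the share of RTT (log2 -3.73, -6.06 to -2.10).

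These shares are descriptions, because the genes that set the cluster apart themselves differed between the tumours, as their levels show. When the cells were clustered anew after the MHC, interferon and TAM_H2Ab1 marker genes had been left out, 1 cluster of 345 cells was mostly TAM_H2Ab1 (227 cells, 65.8%). That cluster made up 1.29%, 0.251%, 0.0878% (6 cells) and 2.06% of CD45+ cells in NTT, RTT, RTT_ROSA26 and RTT_PTGS12KO, which is the same order. It was picked because over 50% of its cells carried the name, so the order is no independent check of the shares. The cluster held 36.0% of all TAM_H2Ab1 cells. At a resolution of 2 without these genes no cluster passed 50%, and a cluster of 671 cells held 333 TAM_H2Ab1 cells (49.6%). The same procedure with all genes gave no cluster in which over 50% of the cells carried the name. The authors had clustered these cells together with other experiments, which are not analysed here.

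Among the cells with a TAM_ name or the name Ctsk_Macro, called macrophages here, the order was another one. Cells named Macro (21, 99, 130 and 96) were not counted among them. TAM_H2Ab1 made up 62.3% of 308 macrophages in NTT (56.7 to 67.8), but 0.936% of 6734 (0.720 to 1.20), 0.184% of 5993 (0.0917 to 0.328) and 6.99% of 5207 (6.31 to 7.72) in the other 3 samples. NTT therefore had the highest share of macrophages and RTT_PTGS12KO the highest share of all CD45+ cells. TAM_C1q, the most frequent macrophage name, covered 12 cells in NTT and 3412 in RTT, and Monocyte_1, the most frequent monocyte name, covered 4977 and 384. In RTT_PTGS12KO these numbers were 1556 and 3347.

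**Figure D1:**
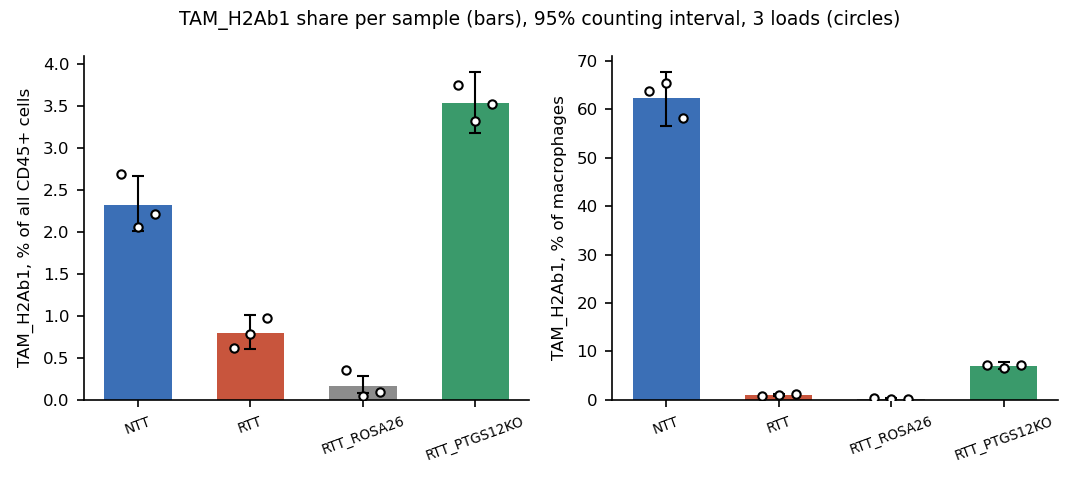
TAM_H2Ab1 cells in each sample as a percentage of all CD45+ cells (left) and of the cells with a TAM_ name or the name Ctsk_Macro (right). Bars give the sample, error bars the 95% counting interval and circles the 3 loads; RTT_PTGS12KO is highest on the left (3.54%) and NTT on the right (62.3%).

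The sums of RTT_ROSA26 were the smallest. A unique molecular identifier (UMI) counts 1 captured RNA molecule, and the median cell had 10052.5, 12825, 10769 and 14878 UMIs. The summed UMIs of the cluster were 2057948, 864667, 156214 and 5802726. Levels are given as CPM, a gene's UMIs scaled to the same fixed total in every sample, so that 3 UMIs correspond to 1.46, 3.47, 19.2 and 0.517 CPM. RTT_ROSA26 was thus far less precise than the other 3 samples. Without the 8 cells of load 1 its H2-Ab1 went from 2637 to 1397 CPM, Gbp2b from 160 to 25.4, Spp1 from 1863 to 229 and Irf7 from 358 to 686 CPM, so its place in an order of samples is not read, and its intervals cover counting error only. The median share of mitochondrial UMIs was between 1.71% and 2.80%. Across the series 196 cells had the same barcode letters as a cell of another load, and 5 of them were TAM_H2Ab1 cells.

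Markers of macrophages and of MHC class II were abundant in all 4 samples, and those of T, NK, B and mast cells were at or near 0. The 3 C1q subunits together with 9 other macrophage genes summed to 24034, 36236, 26905 and 21661 CPM. T cell markers summed to between 0 and 2.76 CPM, NK cell markers to between 0 and 11.6 CPM, B cell markers to between 5.34 and 14.6 CPM and mast cell markers to between 0 and 6.94 CPM. Melanoma and stroma markers reached at most 25.6 CPM, and those of cDC2, a dendritic cell type that also carries class II, at most 26.7 CPM. Neutrophil markers summed to 154 to 179 CPM and those of cDC1, another dendritic cell type, to 38.4 to 96.7 CPM. Markers of monocytes were the exception, with 1257, 594, 1754 and 1009 CPM.

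The genes that led the cluster were compared with all other monocytes and macrophages of the same tumour, again without the cells named Macro. The values are differences in log2(CPM + 1), averaged over the 3 samples with at least 50 cells, and since the cells were clustered on such genes they describe the cluster and are no test. The 10 leading genes were Dnase1l3 (3.01), Ccl8 (2.96), Gbp2b (2.81), Vcam1 (2.03), Ch25h (1.86), Serpina3g (1.84), Cd72 (1.67), Il18bp (1.60), Calhm6 (1.53) and Cxcl9 (1.46). Dnase1l3 encodes a secreted nuclease that digests extracellular DNA, Ccl8 a chemokine for monocytes and T cells, and Gbp2b a guanylate-binding protein. Vcam1 encodes an adhesion molecule for integrin-bearing leukocytes, Ch25h the enzyme that makes 25-hydroxycholesterol, and Il18bp a secreted inhibitor of interleukin-18. Cxcl9, Calhm6 and Serpina3g led through the RTT-derived tumours and not through NTT, where their differences were -0.99, -0.13 and -0.09.

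H2-Ab1 (17:34257689-34269419, plus strand, GRCm38), which encodes the class II β chain that gave the cluster its name, had 5553 (5451 to 5655), 4309 (4172 to 4450), 2637 (2389 to 2905) and 3487 (3439 to 3536) CPM. NTT was above RTT and RTT_PTGS12KO, and all 4 levels were above those of TAM_C1q cells, in which H2-Ab1 reached 620 CPM or less in the RTT-derived tumours. They were not above those of Monocyte_1 cells, which had 7005, 5262, 2898 and 4965 CPM in the same order of samples. H2-Ab1 therefore separated these cells from TAM_C1q cells, of which NTT had 12, but not from the Monocyte_1 cells beside them.

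Gbp2b (3:142594847-142619179, plus strand) had 524 (493 to 556), 241 (209 to 276), 160 (104 to 236) and 230 (217 to 242) CPM. Its sequence is close to that of Gbp2, so reads shared between these genes could be assigned to either. The TAM_C1q cells of the 3 RTT-derived tumours had 1.86, 1.33 and 6.61 CPM, and T and NK cells had between 2.05 and 15.7 CPM. Dnase1l3 (14:7964533-7994573, minus strand) was likewise higher in NTT than in RTT and RTT_PTGS12KO, with 317 CPM (293 to 343), against 162 (136 to 191), 57.6 (26.3 to 109) and 114 (105 to 123) CPM in RTT, RTT_ROSA26 and RTT_PTGS12KO. Cd72, a surface receptor with an inhibitory motif, had 543, 331, 256 and 282 CPM, NTT again being above RTT and RTT_PTGS12KO.

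Ccl8 (11:82115185-82116799, plus strand) went the other way. It had 461 (432 to 491), 2964 (2850 to 3081), 826 (689 to 981) and 2228 (2190 to 2267) CPM, and was lower in NTT than in RTT and RTT_PTGS12KO. In RTT_ROSA26, 1 cell held 99 of 129 UMIs, and without load 1 the level was 25.4 CPM. The 3 loads gave 427, 486 and 476 CPM in NTT and 3428, 2305 and 3137 CPM in RTT, so every load of RTT lay above every load of NTT. The loads are technical repeats of 1 pool and hold no variation between tumours. In TAM_C1q cells the levels were 84.5, 240, 221 and 488 CPM. T and NK cells, which should not make Ccl8, had 21.9, 12.3 and 23.8 CPM in NTT, RTT_ROSA26 and RTT_PTGS12KO, but 538 CPM in RTT, where this background rests on 14 cells.

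The other markers did not share 1 order. Ccl12, a chemokine that attracts monocytes, had 1462, 1138, 512 and 2193 CPM and was higher in RTT_PTGS12KO than in NTT and RTT. Vcam1 had 186, 309, 96.0 and 170 CPM, Ch25h had 138, 110, 76.8 and 167 CPM, and the adhesion molecule gene Cadm1 had 112, 82.1, 25.6 and 57.0 CPM. Mmp13, which encodes a collagenase, had 302 CPM in NTT and 307 in RTT_ROSA26 but 134 in RTT and 82.5 in RTT_PTGS12KO. Of the 48 UMIs in RTT_ROSA26 33 came from 1 cell, and its loads had 51.4, 705 and 1241 CPM. Vcam1 distinguished the cluster from Monocyte_1, which had at most 24.5 CPM, but not from TAM_C1q, which had up to 190 CPM.

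**Figure D2:**
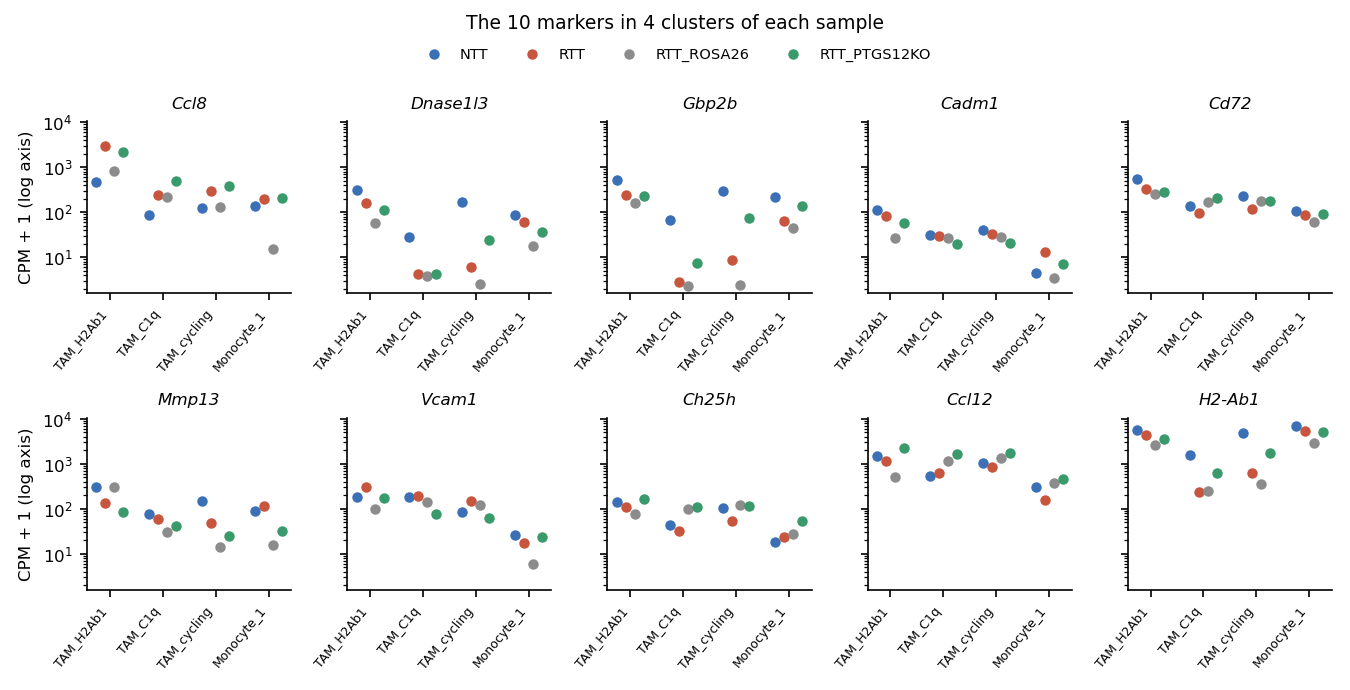
Level of each of the 10 markers, as CPM + 1 on a log axis, in TAM_H2Ab1, TAM_C1q, TAM_cycling and Monocyte_1 cells; each point is 1 sample. Gbp2b and Dnase1l3 fall to a few CPM in the TAM_C1q cells of the RTT-derived tumours, whereas H2-Ab1 is as high in Monocyte_1 as in TAM_H2Ab1.

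Promoters were read because many members are known interferon-γ targets. The 250 bases before the annotated start are shown for 3 genes (RefSeq, GRCm38.p6, plus strand): Gbp2b and H2-Eb1 as a guanylate-binding protein and a class II gene, and Ccl8 as the marker whose level differed most between NTT and RTT. Capitals mark matches to an interferon-stimulated response element (GAAANNGAAA or its complement TTTCNNTTTC) or to a CCAAT box (CCAAT or its complement ATTGG). Another motif, the interferon-γ-activated site TTCNNNGAA, had no match in these windows.
Gbp2b, chr3:142594597-142594846: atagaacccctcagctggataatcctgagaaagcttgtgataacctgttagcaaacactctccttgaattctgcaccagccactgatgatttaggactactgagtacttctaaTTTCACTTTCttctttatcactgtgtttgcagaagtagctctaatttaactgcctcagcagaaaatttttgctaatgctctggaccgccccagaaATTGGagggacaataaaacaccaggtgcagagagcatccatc
H2-Eb1, chr17:34305617-34305866: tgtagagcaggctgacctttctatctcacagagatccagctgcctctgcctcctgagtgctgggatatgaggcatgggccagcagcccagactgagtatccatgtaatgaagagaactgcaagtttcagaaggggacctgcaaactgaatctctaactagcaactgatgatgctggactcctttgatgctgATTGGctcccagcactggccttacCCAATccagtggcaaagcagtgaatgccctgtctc
Ccl8, chr11:82114935-82115184: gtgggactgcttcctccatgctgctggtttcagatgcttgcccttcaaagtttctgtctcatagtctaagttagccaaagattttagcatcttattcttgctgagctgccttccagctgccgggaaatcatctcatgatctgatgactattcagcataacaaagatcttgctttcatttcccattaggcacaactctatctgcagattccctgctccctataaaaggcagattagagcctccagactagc

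The response element of Gbp2b lies 127 to 137 bases before the start and its CCAAT box 37 to 42 bases before it, while H2-Eb1 has CCAAT boxes 54 to 59 and 30 to 35 bases before the start. Over the same windows of all 32851 promoters, 7.02% held the activated site, 2.98% the response element and 33.8% a CCAAT box. Of the 33 type II interferon genes 22 had a window, of which 8 held the activated site, 13 the response element and 9 a CCAAT box. Of the 16 class II genes 12 had a window, and these held 1, 1 and 9. Of the 32 type I interferon genes 24 had a window, with 4, 11 and 8, and of the 10 markers 6 had one, with 0, 2 and 1. A match describes the letters of the window and is no measure of binding.

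TAM_H2Ab1 was next compared with 3 clusters of the same tumour, again as a description, because the clusters were made from these genes. A gene counts as higher or lower when it was past 2-fold in each of the 4 samples, and genes needed a mean of at least 50 CPM. Against TAM_C1q, 71 of 2501 genes were higher (2.84%) and 20 were lower (0.8%). The class II list was higher by a median log2 of 1.34, 3.29, 2.75 and 2.04, with 5 of 8 genes higher in every sample. The type II interferon list had 17 of 24 genes higher in every sample and medians of 1.30, 3.22, 3.41 and 1.94. The type I list had 7 of 9 and medians of 1.78, 2.23, 2.81 and 1.51, so that both kinds of interferon gene set the cluster apart from TAM_C1q. Of the class I list, 10 of 16 genes were higher.

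Genes often described in suppressive macrophages were lower than in TAM_C1q. The list had 10 of 19 genes lower in every sample and medians of -2.26, -1.65, -1.33 and -1.47. Spp1, which encodes the matrix protein osteopontin, had 2949, 4134, 5206 and 6884 CPM in TAM_C1q cells and 197, 542, 1863 and 1752 CPM in TAM_H2Ab1 cells. Fn1, which encodes fibronectin, had 860, 784, 1115 and 1743 CPM in TAM_C1q and 49.6, 104, 506 and 472 CPM in TAM_H2Ab1. The 12 macrophage markers had medians between -0.19 and -0.07, with 0 of 12 past the fold in every sample.

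Against Monocyte_1 other genes differed. Of 2450 genes, 32 were higher (1.31%) and 25 lower (1.02%) in every sample. With TMM factors 24 were higher and 36 lower, and without RTT_ROSA26 the counts were 42 and 42. All 5 monocyte markers at 50 CPM or more were lower, with medians of -2.55, -2.69, -2.06 and -2.82, and 5 of 11 macrophage markers were higher. The genes furthest above Monocyte_1 were Ccl8, Vcam1, the folate receptor gene Folr2, the serpin gene Serpinb6a and the tetraspanin gene Cd63. Those furthest below were the coagulation factor gene F10, the protease inhibitor gene Slpi, Chil3, Mcemp1 and Ly6c2, a surface marker of inflammatory monocytes. The class II list had 0 of 9 genes past the fold and medians of -0.33, -0.27, 0.11 and -0.35, and the type II interferon list had medians of -0.28, 0.17, -0.55 and -0.20. By these measures TAM_H2Ab1 cells had the macrophage genes of TAM_C1q and about the class II and interferon gene levels of Monocyte_1, and interferon-γ-type genes did not distinguish them from the latter.

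Against TAM_cycling, 6 of 2580 genes were higher (0.233%) and 63 lower (2.44%). The higher genes were Ccl5, Ccl8, Slfn5, Mmp13, Slamf7 and the lipid transfer protein gene Pltp, and all 6 cycling markers tested were lower. Without NTT 31 genes were higher, so the small count depends on that sample. The class II medians against TAM_cycling were 0.17 in NTT but 2.23, 2.46 and 0.90 in RTT, RTT_ROSA26 and RTT_PTGS12KO. In NTT the class II list took 2.37% of the UMIs of the median TAM_H2Ab1 cell and 2.16% of those of the median TAM_cycling cell. A UMI of at least 3 of 10 cycling genes was found in 27 of 192 (14.1%), 6 of 63 (9.52%), 2 of 11 (18.2%) and 70 of 364 (19.2%) cells. These shares were taken at the depth of each sample, which differed.

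Across genes of at least 50 CPM, which are not independent replicates, TAM_H2Ab1 correlated with Monocyte_1 with a Pearson r of 0.928, 0.939, 0.903 and 0.94995. The r with TAM_C1q was 0.884, 0.880, 0.857 and 0.943, where NTT had 12 TAM_C1q cells, and that with TAM_cycling was 0.938, 0.845, 0.797 and 0.927. Monocyte_1 was thus above both in the RTT-derived tumours, by little over TAM_C1q in RTT_PTGS12KO, and in NTT TAM_cycling was highest. The profiles being compared share library, sort and sequencing run. Between samples, the TAM_H2Ab1 profiles correlated with r from 0.916 to 0.975, the last between RTT and RTT_PTGS12KO.

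**Figure D3:**
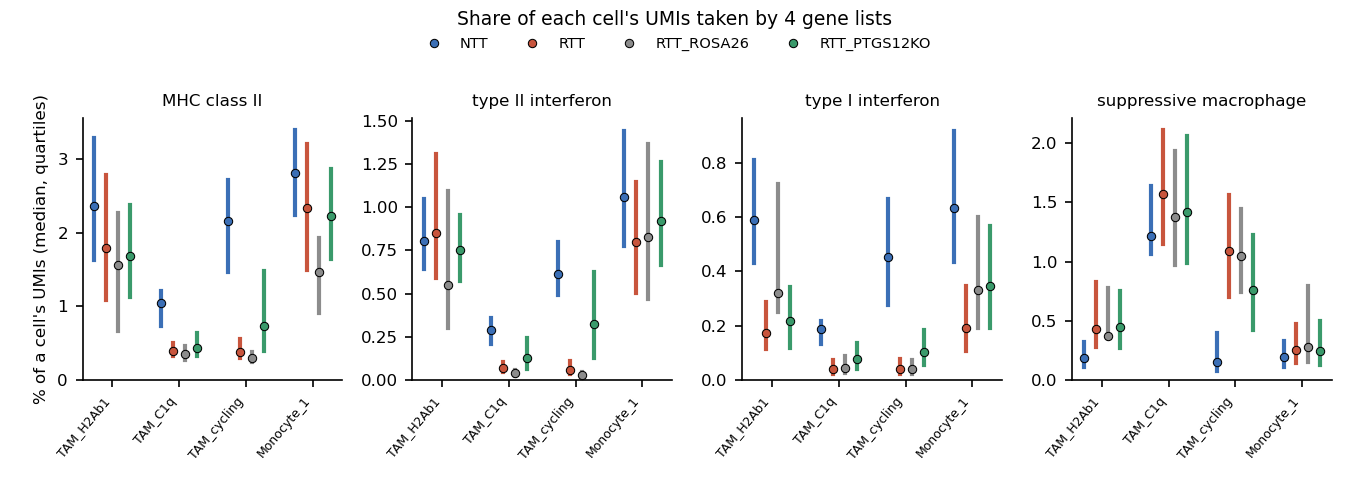
Percentage of each cell's UMIs taken by 4 gene lists in TAM_H2Ab1, TAM_C1q, TAM_cycling and Monocyte_1 cells; points are medians over the cells of 1 sample and lines the quartiles. TAM_H2Ab1 cells lie with Monocyte_1 for the class II and both interferon lists, and below TAM_C1q for the suppressive list (0.182% against 1.22% in NTT).

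The NTT and RTT samples compare tumours that had not met targeted therapy with resistant ones. Of 2495 genes in TAM_H2Ab1 cells, 63 were higher by 2-fold or more in NTT (2.53%) and 49 were lower (1.96%). The type I interferon list had 9 of 20 genes higher in NTT and 0 lower, with a median log2 difference of 0.90 against -0.02 over all genes. Without load 3, 14 of 18 were higher and the median was 1.50. Monocyte markers moved with it: 3 of 4 were higher in NTT and 1 lower, with a median of 1.42, the 8 markers of the list summed to 1257, 594, 1754 and 1009 CPM, and their part in the result was not tested. The suppressive list had 8 of 16 lower and 1 higher, with a median of -1.02. The class II list had 0 of 9 past the fold in either direction and a median of 0.30. The type II interferon list was split, with 3 of 28 higher, 2 lower and a median of -0.03.

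Irf7, a transcription factor that drives type I interferon responses, had 486 (457 to 517), 138 (114 to 165), 358 (271 to 466) and 112 (103 to 121) CPM. The log2 difference of NTT from RTT was 1.81 (1.55 to 2.11). By load, NTT had 441, 517 and 508 CPM and RTT had 148, 51.0 and 188 CPM, which did not overlap. Monocyte_1 cells had 454, 139, 204 and 175 CPM, so that NTT was above RTT and RTT_PTGS12KO there too.

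Ifi44, an antiviral interferon-induced gene, had 128 (113 to 144), 16.2 (8.85 to 27.2), 44.8 (18.02 to 92.3) and 13.4 (10.6 to 16.8) CPM. Its log2 difference of NTT from RTT was 2.91 (2.21 to 3.87), and in Monocyte_1 it had 64.7, 12.7, 16.98 and 11.9 CPM. Isg15, a ubiquitin-like modifier, had 641, 222, 647 and 251 CPM, and Ifi27l2a had 2996, 932, 1472 and 1191 CPM. NTT was thus above RTT and RTT_PTGS12KO for these 4 genes, while the loads of RTT_ROSA26 ranged from 78.3 to 1504 CPM for Isg15. Parp14, the remaining named gene of the type I list, differed less, with 199, 146, 160 and 134 CPM.

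Genes induced by interferon-γ did not move as 1 group. Cxcl9, a chemokine for activated T cells, had 518 (487 to 550), 1972 (1879 to 2068), 1709 (1510 to 1927) and 1387 (1357 to 1417) CPM, a log2 difference of NTT from RTT of -1.93 (-2.04 to -1.82). Gbp2 had 359, 970, 384 and 943 CPM, which is -1.43 (-1.58 to -1.29) for NTT against RTT, while its close relative Gbp2b had 1.12 (0.91 to 1.34). Fcgr4, an activating antibody receptor, had 1137, 1185, 711 and 821 CPM. NTT was therefore below RTT and RTT_PTGS12KO for Cxcl9 and Gbp2 and above them for Gbp2b. In RTT_ROSA26, 160 of 267 Cxcl9 UMIs came from 1 cell, and without load 1 Cxcl9 was at 508 and Gbp2 at 127 CPM.

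Of the 9 class II genes with a mean of at least 50 CPM, 0 passed 2-fold in the 5 comparisons between samples with all cells and CPM. With RTT_PTGS12KO set against RTT_ROSA26, 1 was higher with TMM factors, 1 was higher without the cells with 3 or more cycling genes, and 4 of 10 were higher and 1 lower without load 1. Without that load RTT_ROSA26 also fell below RTT by over 2-fold for H2-Ab1, at 1397 against 4480 CPM, and for H2-Aa, Cd74 and H2-DMa. H2-Aa and H2-Eb1, which encode an α and another β chain, had 4737, 3774, 2951 and 3524 CPM and 4869, 3952, 3201 and 3391 CPM, so that NTT was above RTT and RTT_PTGS12KO for both. Ciita had 64.1 (53.7 to 76.1), 46.3 (33.05 to 62.99), 70.4 (35.2 to 126) and 82.0 (74.8 to 89.7) CPM. The invariant chain gene Cd74, which blocks the peptide groove until loading, had 1709, 1204, 858 and 1040 CPM, and Ctss, a protease that degrades the invariant chain, had 4707, 4586, 3258 and 3198 CPM. Ifi30, a thiol reductase of antigen processing, had 1109, 1577, 1408 and 1402 CPM, and H2-DMa, part of the peptide exchanger, had 702, 799, 442 and 818 CPM, so that both were lower in NTT than in RTT_PTGS12KO.

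Of 12 costimulation genes 4 were past 2-fold higher in NTT than in RTT and 0 lower, beside 2.53% and 1.96% of all genes. The list median was a log2 of 0.65, and the 4 genes were Cd274, Cd40, Slamf7 and Havcr2. Since the list also holds genes that restrain T cells and a cytokine gene, the count is not one of costimulation alone. Cd274, which encodes PD-L1, the ligand that restrains T cells through PD-1, had 431 (404 to 461), 208 (179 to 241), 70.4 (35.2 to 126) and 232 (219 to 244) CPM. Cd40, the receptor for T cell help, had 132, 61.3, 89.6 and 93.6 CPM (40.3 in RTT without load 3), and Slamf7 had 300.3, 99.5, 89.6 and 141 CPM. Cd86, a ligand of the costimulatory receptor CD28, had 197, 124, 115 and 135 CPM, which did not pass the fold. Il1b, an inflammatory cytokine gene, was the most abundant of the list at 1328, 943, 1600 and 736 CPM. Cd48 differed little, with 197, 202, 166 and 189 CPM, and Havcr2, which encodes TIM-3, had 89.4, 42.8, 64.0 and 69.3 CPM.

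The 5 genes with the largest excess in NTT over RTT were H2-Q6 (2.92), Ifi44, the matrix protein gene Spon1 (2.51), Ly6c2 (2.16) and the metalloprotease gene Mmp12 (2.00). Without load 3 H2-Q6 was at 4.36, Ly6c2 at 3.63 and Mmp12 at 0.82, which no longer passed the fold, and without load 1 Mmp12 was at 4.80. H2-Q6 is a class I gene nearly identical to H2-Q7, so its 199 against 25.4 CPM is uncertain. Ly6c2 had 381 CPM in NTT and 84.4 CPM in RTT, but T cells can express it too, and with every cell of NTT thinned to 5000 UMIs it was found in 243 of 608 T and NK cells and 62 of 173 TAM_H2Ab1 cells, so no expression is read from that share. The 5 with the largest deficit were Ccl8 (-2.68, interval -2.79 to -2.58), the clotting factor gene F13a1 (-2.51), Ifitm1 (-2.45), Serpinb6a (-1.99) and the apolipoprotein gene Apoc2 (-1.98). F13a1 had 36.4 CPM in NTT and 212 in RTT, where the 14 T and NK cells had 326 CPM. Ifitm1, an antiviral membrane protein gene, had 244, 1337, 2650 and 184 CPM, and T and NK cells, which also express it, had 680, 1183, 1308 and 674 CPM.

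The suppressive list has to be read beside its background. Spp1 was at 1809, 1360, 2214 and 2230 CPM in T and NK cells, which is above the level in TAM_H2Ab1 cells in every sample, so no expression by TAM_H2Ab1 cells is read from it, and whether T and NK cells make it was not tested. Fabp5, a fatty acid-binding protein gene, had 666, 1826, 1050 and 1106 CPM, and T and NK cells had 106, 1447, 314 and 128 CPM. Selenop, a selenium transport protein gene, had 372, 736, 903 and 499 CPM, against 32.9, 437, 283 and 43.0 CPM. Apoe, the lipid carrier gene that is the largest of the sterol list, had 6448, 17616, 12745 and 6952 CPM in TAM_H2Ab1, and 503, 8208, 4171 and 504 CPM in T and NK cells. The background in RTT and RTT_ROSA26 rests on 14 and 28 cells.

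Knocking out Ptgs1 and Ptgs2 in the cancer cells is compared with the Rosa26 control first, although the control held 11 TAM_H2Ab1 cells. Of 2503 genes, 44 were higher by 2-fold or more in RTT_PTGS12KO (1.76%) and 107 lower (4.27%). With TMM factors, which were 0.974 for RTT_PTGS12KO and 1.11 for RTT_ROSA26, 86 were higher and 61 lower, so the balance of directions depends on the scaling. By CPM the class II list had 0 of 9 past the fold and a median of 0.26, and the type II interferon list had 8 of 27 higher, 1 lower and a median of 0.56. The type I list had 0 of 16 higher and 5 lower, with a median of -0.74. Monocyte markers moved the same way, with 0 of 5 higher, 2 lower and a median of -0.95, and their part in the result was not tested. The genes furthest up were Gbp6 (2.40), the GTPase gene Iigp1 (2.28), Ccl12 (2.10), the glycolysis gene Pfkp (1.80) and Cd274 (1.704, interval 0.87 to 2.72). The interval of Gbp6, 0.90 to 4.74, rests on 3 UMIs in the control.

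The genes furthest down against RTT_ROSA26 were Ifitm1 (-3.84, interval -4.02 to -3.68), Ccl5 (-2.53), the glutathione reductase gene Gsr (-2.45), Id1 (-2.42) and Chil3 (-2.26). A few cells carried some of these values. The loads of RTT_ROSA26 had 1215, 3836 and 8384 CPM of Ifitm1, and with load 3, which held 2 of its cells, left out of both samples the difference was -2.98. Of 312 Ccl5 UMIs in RTT_ROSA26, 219 came from the 1 cell of the second load, and without the 8 cells of the first load Chil3 turned to 0.16 and Id1 had 0 UMIs in RTT_ROSA26, so no difference is given for it. Without that load the list medians were 0.70 for class II, 1.50 for type II interferon and 0.62 for the suppressive list, which was -0.13 with it and 0.058 with TMM factors, and 653 genes were past the fold. With 11 control cells, a difference between the tumours and the state of a few cells cannot be told apart.

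Against RTT, which had 63 cells and no edit, RTT_PTGS12KO had the fewest genes past the fold. Of 2450 genes, 13 were higher (0.531%) and 23 lower (0.939%). The medians were -0.17 for class II, -0.07 for type II interferon, -0.25 for type I interferon and 0.00 for the suppressive list. Without load 3 the type I median was 0.14, and without load 2 the suppressive median was -0.25. The class II and type I lists had 0 genes past the fold. The largest excesses were those of Ccr2 (2.43), Fn1 (2.17), Ccl7 (1.89), Spp1 (1.69) and Ccl2 (1.48). Ccr2 is the receptor by which monocytes leave the marrow, and Ccl2 and Ccl7 are its ligands. Ccl7 had 600, 205, 499 and 763 CPM and Ccl2 had 793, 442, 928 and 1231 CPM, so that RTT was below NTT and RTT_PTGS12KO for both ligands.

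Ccr2 had 97.7, 33.5, 250 and 186 CPM, but T and NK cells had 260 to 354 CPM in all samples. Fn1 was higher in TAM_H2Ab1 than in T and NK cells of RTT_PTGS12KO, at 472 against 106 CPM, and not in RTT, at 104 against 281 CPM. The loads of RTT_PTGS12KO had 557, 475 and 401 CPM of Fn1 and those of RTT 217, 54.9 and 73.7 CPM. The largest deficits were those of Ifitm1 (-2.86), the transferrin gene Trf (-1.74), the platelet factor 4 gene Pf4 (-1.43), Cd38 (-1.39) and the vitamin B12 carrier gene Tcn2 (-1.38). Pf4 varied between the loads of RTT, with 1758, 580 and 1871 CPM against 663, 485 and 492 CPM in RTT_PTGS12KO.

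RTT_PTGS12KO and NTT were the samples with the most TAM_H2Ab1 cells, yet 31 of 2465 genes were higher by 2-fold or more (1.26%) and 60 lower (2.43%) in RTT_PTGS12KO. The type I list had 0 of 18 higher and 11 lower, with a median of -1.14. Of 4 monocyte markers 1 was higher and 1 lower, so their median of -0.036 covers opposite moves. Their part in the result was not tested. The suppressive list had 7 of 16 higher and 1 lower, with a median of 0.82. The class II list had 0 of 9 past the fold and a median of -0.43, and the type II list a median of 0.00. The largest excesses were those of Fn1 (3.23), Spp1 (3.14), Ccl8 (2.27, interval 2.18 to 2.37), S100a4 (2.13) and F13a1 (2.04). S100a4, a calcium-binding protein gene, had 61.2 CPM in NTT and 271 in RTT_PTGS12KO, and T and NK cells had 731 and 458 CPM. The largest deficits were those of Ifi44 (-3.16), Spon1 (-2.28), H2-Q6 (-2.28), Irf7 (-2.11) and Ccl5 (-2.07). Ccl5 had 1445 CPM in NTT and 344 in RTT_PTGS12KO, while T and NK cells had 3136 and 1136 CPM, and H2-Q6 had 199 and 40.3 CPM against 238 and 189 CPM there. The last 3 comparisons share RTT_PTGS12KO, and those with RTT and NTT share samples with the comparison of NTT and RTT.

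**Figure D4:**
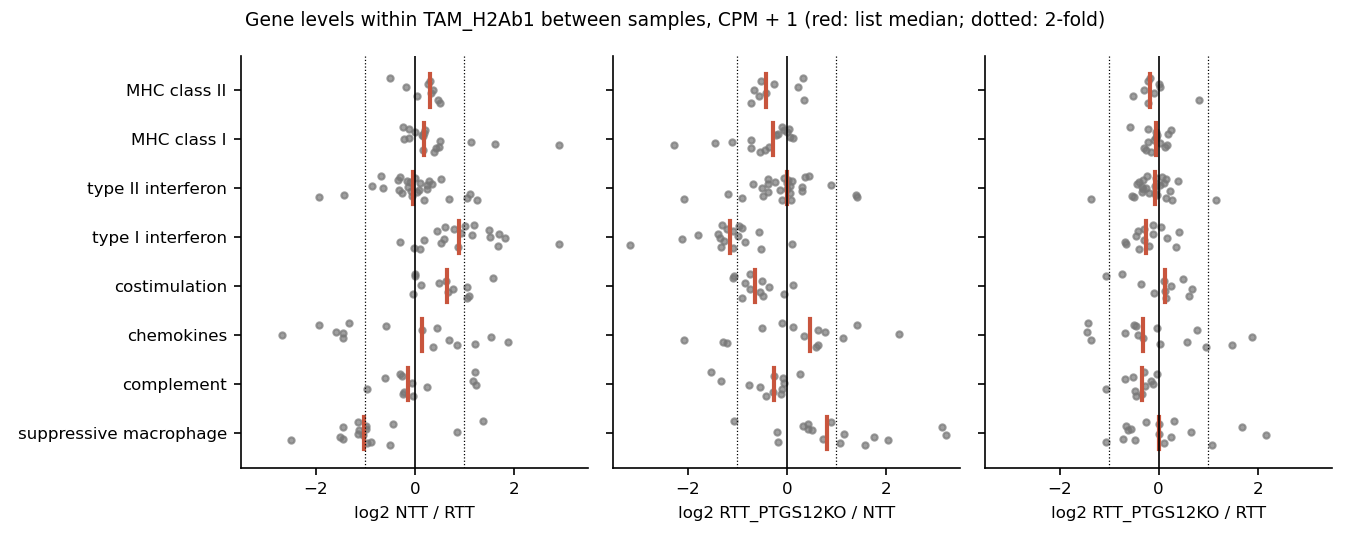
Differences in log2(CPM + 1) within TAM_H2Ab1 between samples; each grey point is a gene of a list at 50 CPM or more, red bars are list medians and dotted lines mark 2-fold. The type I list lies right of 0 for NTT against RTT (0.90) and left of 0 for RTT_PTGS12KO against NTT (-1.14), whereas class II stays within the 2-fold lines in all 3 panels.

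Cxcl10, another ligand of the receptor of Cxcl9, had 821, 741, 736 and 1264 CPM. The RTT loads had 167, 607 and 1144 CPM, and without load 3 RTT was at 405 CPM. Between NTT and RTT, 3 of 15 chemokine genes were higher in the former and 6 lower. Over all genes these shares were 2.53% and 1.96%, which is also the background of the list counts that follow for this pair of samples. The C1q subunits stayed within 2-fold, with C1qb at 5361, 6301, 4379 and 4957 CPM, C1qa at 3691, 3782, 2535 and 2766 CPM and C1qc at 3093, 3583, 2324 and 2569 CPM. The complement list had a median of -0.13 with NTT set against RTT and of -0.35 with RTT_PTGS12KO set against RTT. Of the class I list, NTT had 3 of 17 genes above RTT past the fold and a median of 0.19, with B2m, the light chain, at 6244, 4774, 3847 and 4292 CPM.

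Transcription factors differed less than the type I genes, with 2 of 18 higher in NTT than in RTT and a median of 0.33. Irf8, which directs monocyte and dendritic cell fate, had 446, 230, 256 and 398 CPM. Of 8 genes of the prostaglandin list, 0 passed the fold between NTT and RTT. Ptgs2 had 200 (181 to 220), 173 (147 to 204), 288 (210 to 385) and 215 (203 to 227) CPM, but RTT_ROSA26 was at 25.4 CPM without load 1. For nucleic acid clearance 1 of 9 genes and for adhesion and matrix 2 of 12 genes were past the fold with NTT above RTT, and the medians were 0.21 and 0.03. Of 5 sterol genes 1 was higher and 2 were lower in NTT.

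The cells of the cluster were not alike in their chemokine output. Ccl8 was found in 66 of 192 (34.4%), 38 of 63 (60.3%), 4 of 11 (36.4%) and 250 of 364 (68.7%) cells. With each cell thinned to 5000 UMIs, which left out 19, 0, 0 and 11 cells, the shares were 28.9%, 49.2%, 27.3% and 53.5%. The same shares in T and NK cells, after thinning, were 5.76%, 16.7%, 0% and 7.79%, where 0 of 24 cells allows up to 14.2%. Median depths before thinning were 8074, 16959, 11528.5 and 16051 UMIs in T and NK cells. Within each sample a few cells held most of the Ccl8: the 20 highest cells of NTT had 88.2% of its UMIs, the 7 highest of RTT 76.6%, the 37 highest of RTT_PTGS12KO 69.8% and the 2 highest of RTT_ROSA26 96.1%.

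H2-Ab1 was spread evenly by comparison, the same numbers of highest cells of NTT, RTT and RTT_PTGS12KO holding 25.2%, 26.7% and 25.6% of its UMIs. It was found in 186 of 192 (96.9%), 60 of 63 (95.2%), 10 of 11 (90.9%) and 363 of 364 (99.7%) cells, and in 96.5%, 92.1%, 81.8% and 97.7% after thinning. In T and NK cells H2-Ab1 was found in 234 of 608, 3 of 12, 8 of 24 and 110 of 321 thinned cells. H2-Ab1 and C1qa were found together in 96.0%, 92.1%, 81.8% and 96.9% of thinned TAM_H2Ab1 cells. In T and NK cells C1qa was found in 108 of 608, 5 of 12, 10 of 24 and 64 of 321 thinned cells. The share of cells with both UMIs thus includes free RNA and any doublets within a sample, and their part in it was not tested.

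Gbp2b and Dnase1l3 were found in a larger share of cells in NTT than in RTT and RTT_PTGS12KO, whereas for Ccl8 the share was larger in RTT and RTT_PTGS12KO. Gbp2b was found in 169 of 192 (88.0%), 36 of 63 (57.1%), 6 of 11 (54.5%) and 223 of 364 (61.3%) cells. Thinned, these shares were 82.7%, 41.3%, 45.5% and 44.8%, against 4.28%, 0%, 4.17% and 3.12% in T and NK cells, where the 0 of 12 cells in RTT allows up to 26.5%. Dnase1l3 was found in 144 of 192, 41 of 63, 5 of 11 and 168 of 364 cells, and in 63.0%, 42.9%, 18.2% and 28.6% after thinning, against 2.63%, 0%, 0% and 1.87% of T and NK cells. Cells with at least 5 of the 10 markers made up 80.9%, 66.7%, 36.4% and 58.4% at this depth. Vcam1 was found in 32.9%, 42.9%, 18.2% and 33.1% of thinned cells and Ch25h in 32.9%, 25.4%, 27.3% and 41.1%, so the leading genes did not share 1 order of samples.

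**Figure D5:**
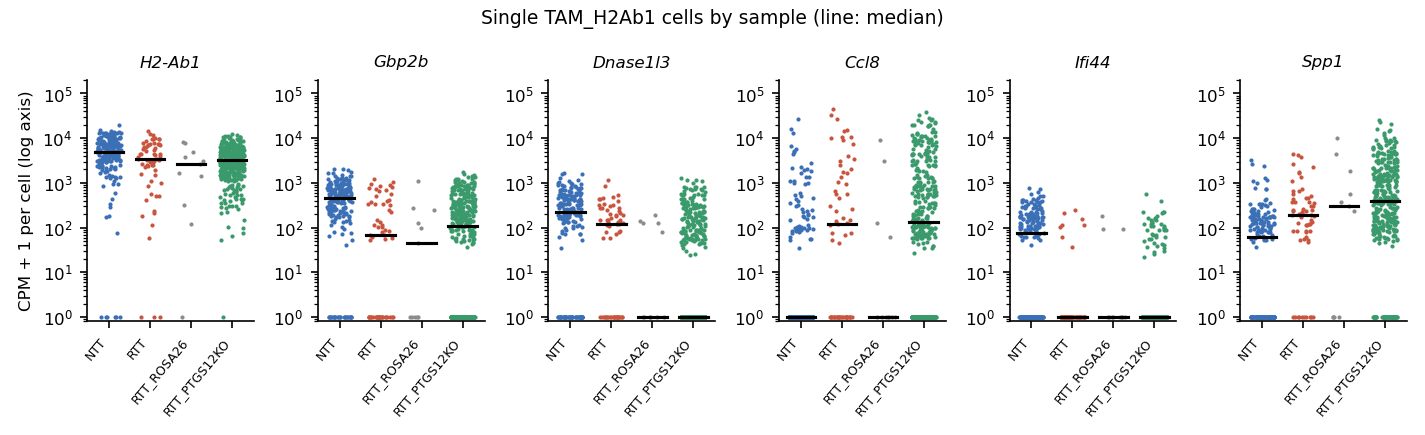
Level of 6 genes in single TAM_H2Ab1 cells by sample, as CPM + 1 on a log axis; each point is a cell, lines are medians, and cells without a UMI lie at 1. H2-Ab1 is found in nearly all cells of every sample (median 5032 CPM in NTT), whereas Ccl8 is at 0 in the median cell of NTT and reaches 26738 CPM in the highest one.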

How the data were processed

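The authors deposited UMI counts (whole numbers, not normalised) of 32285 genes in 33368 cells with a table of sample, load and cell type. Per the labels and the study's methods, cells were tagged with multiplexing oligos, pooled, loaded 3 times, processed with Cell Ranger (mm10) and filtered (over 1000 genes, under 15% mitochondrial and 40% ribosomal UMIs), and clustered in Seurat 4.3.0 after integration (40 dimensions, resolution 0.5). Cross-sample doublets were removed with the oligos before deposit, and no doublet caller was run here.

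Counts were summed over the TAM_H2Ab1 cells of each sample and scaled to CPM, and differences are log2 of CPM + 1 ratios between genes with a mean of at least 50 CPM. Intervals of a ratio are exact binomial on the UMIs. No test was possible with 1 sample per group. The ratios and intervals were tested on simulated data. The simulated counts were Poisson, as the intervals assume, so the spread between cells was not checked. Named genes were the 10 markers, up to 8 class II and 8 costimulation genes, the 10 leading genes, the 5 highest and 5 lowest genes of each comparison (100 CPM or more in the higher sample and 20 UMIs or more), and the 4 most abundant genes of each other list. Some genes that this rule names are not reported here. The genes furthest from another cluster were chosen after their values were seen. The members and lists were chosen with earlier results of these data known. Markers and cell types came from the authors' names. Coordinates are those of GENCODE on GRCm38, and promoters are from RefSeq.

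Alternatives were a pseudocount of 10, no minimum CPM, TMM scaling, stricter cells (1500 genes, 10% mitochondrial), leaving out the 5% of cells with most UMIs or cycling cells, the mean of the cells' own CPM, thinning to 3000 UMIs, T and NK cells left out of the denominator, loads left out for the shares, and own clusters. Leaving out loads for levels, clustering without the list genes (and at resolutions of 0.5 and 2) and leaving out RTT_ROSA26 or NTT from the cluster comparisons were chosen after seeing the data. Python 3.11.15, numpy 2.4.6, scipy 1.17.1, pandas 2.3.3, scanpy 1.11.5, igraph 0.11.9, R 4.3.3 and edgeR 4.0.16 (TMM factors only) were used.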

Additional observations from a re-analysis of the deposited data

How the results depend on the processing

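No paired analysis was possible because the groups held 1 sample apiece. For the shares, counts past the fold and list medians, 166 planned values stayed within counting error or 1.5 times the reported one and 10 moved. Of those chosen after seeing the data, 60 stayed and 16 moved. A value that stayed can still have turned direction, since counts between samples were compared as the sum of higher and lower genes. RTT_PTGS12KO against RTT_ROSA26 stayed with TMM factors, although 44 higher and 107 lower genes became 86 and 61. The planned own clusters with all genes gave no value, since none held over 50% TAM_H2Ab1 cells. At a resolution of 1, clusters made without the list genes gave shares of 1.29% in NTT, 0.251% in RTT and 2.06% in RTT_PTGS12KO. At a resolution of 2 none of them held over 50% TAM_H2Ab1 cells. The share in RTT_ROSA26 fell to 0.0659% without load 1.

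With no minimum CPM, 2182 genes were past the fold for NTT against RTT (112 reported), 4444 for RTT_PTGS12KO against RTT_ROSA26 (151; 3010 higher and 1434 lower), 949 against NTT (91) and 1515 against RTT (36), and the class II median against NTT was -0.25. By construction that setting adds genes of few UMIs. Leaving out a load moved the class II median to 0.19 for NTT against RTT (load 3), to -0.49 and -0.34 for RTT_PTGS12KO against NTT (loads 1 and 3) and to 0.70 against RTT_ROSA26 (load 1), and without the 5% of cells with most UMIs it was -0.081 against RTT. The type I median without load 3 became 1.50 for NTT against RTT, and 0.14 when RTT_PTGS12KO was set against RTT. For RTT_PTGS12KO against RTT_ROSA26 without load 1, the type II median was 1.50, the suppressive median 0.62 and the count past the fold 653, and against RTT without load 2 the suppressive median was -0.25. Against TAM_cycling the 6 higher genes became 10 with TMM, 10 without RTT_ROSA26 and 31 without NTT, and the 25 genes lower than in Monocyte_1 became 42 without RTT_ROSA26. Thinned to 3000 UMIs, 63.7% of NTT and 38.4% of RTT_PTGS12KO cells had at least 5 of 10 markers. Against RTT_ROSA26, Chil3 turned to 0.22 without cycling cells and 0.16 without load 1, and Id1 to 4.48 without load 1, where RTT_ROSA26 had 0 UMIs and the value depends on the pseudocount. The cause of these shifts was not tested. Depth limits RTT_ROSA26, where 3 UMIs are 19.2 CPM.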
